A study of Mus musculus with 36 samples.

Results

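The comparison described here is that of *Sirt7*-/- mouse pro-B cells expressing Pax5 K198R with the same cells carrying an empty vector (EV). Pax5 K198R has arginine in place of lysine at 1 of the positions where Pax5 is acetylated, a substitution that keeps the positive charge and cannot be acetylated. The members were all genes that reached 10 normalized counts in 2 or more of these groups' 4 libraries, 13196 of the 18721 genes that the table lists. Of these, 12193 passed that minimum in both libraries of both groups, 157 passed it in the EV group alone and 159 in the K198R group alone. The choice of genes used no difference between the groups, but a gene that passed through 1 group alone had to differ. Among the called genes named below, *Sel1l3*, *Foxf2* and *Xlr3a* passed through K198R alone, and *Stum*, *Rtn4rl2*, *Gpr65*, *Zbtb16* and *Prdm1* through EV alone.

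The cells were lineage-negative pro-B cells, sorted on surface markers that included B220 and the absence of IgM, from the bone marrow of *Sirt7*-/- mice, which lack part of the *Sirt7* gene in the germline. They were grown ex vivo with IL-7, SCF and FLT3-L on OP9 cells, a mouse bone marrow stromal line made unable to divide with mitomycin C. A retroviral vector delivered a surface or fluorescent marker alone (EV) or together with wild-type Pax5 (Pax5 WT) or Pax5 K198R, and marker-positive cells were sorted for RNA-seq. The remaining group held wild-type pro-B cells with EV. All 4 groups keep the endogenous *Pax5* gene, so the vector adds Pax5 to cells that already make it. Each group had 2 libraries, and the study's methods say that replicates were made on different days and that, where mice were used, a replicate stands for a single mouse. The labels do not name the mouse of a library, and the p-values below measure the spread between libraries.

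Pax5 is the transcription factor that commits lymphoid progenitors to the B cell lineage. It turns on genes for the B cell receptor and its signalling and holds down genes of T cells, innate lymphoid cells, myeloid cells and plasma cells. SIRT7 is a nuclear deacetylase of the sirtuin family. The comparison asks which transcripts differ when *Sirt7*-/- cells are given a form of Pax5 that cannot be acetylated at this position.

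The libraries of the 4 groups summed to between 27814214 and 30160880 normalized counts. The K198R libraries held 28399153 and 27814214, and the EV libraries of the same cells 28365857 and 28969056. Of the 18721 genes, 2222 and 1915 were listed at 0 in the K198R libraries and 2183 and 2150 in the EV libraries. The second K198R library and the second Pax5 WT library, with 1892 genes at 0, had the fewest.

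*Sirt7*, the deleted gene, measured 336 and 387 normalized counts in the EV libraries and 325 and 355 in the K198R libraries of *Sirt7*-/- cells, against 1324 and 905 in wild-type cells with EV. The *Sirt7*-/- libraries all lay below the wild-type ones, which matches the labels, and some *Sirt7* signal remained in each of them. *Sirt7* did not differ measurably between K198R and EV (log2 fold change -0.09, SE 0.22, limma adjusted p = 0.894, exact two-sided permutation p = 0.667).

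*Pax5*, the delivered gene (chr4:44524757-44710487, mm10), measured 25995 and 37114 normalized counts with EV and 38690 and 45426 with K198R. Both K198R libraries lay above both EV libraries, by a margin that was small beside the gap between the EV libraries. The log2 fold change was 0.43 (SE 0.18) and did not pass the test (limma adjusted p = 0.241). The exact two-sided permutation p was 0.333, the smallest that 2 against 2 libraries can give. Pax5 WT cells held 43024 and 43260 normalized counts of *Pax5*, and the log2 difference between K198R and Pax5 WT was -0.04 (SE 0.18, limma adjusted p = 0.999). The values do not separate transcripts of the vector from those of the endogenous gene.

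The defining transcripts of pro-B cells were present in every library. *Igll1*, a part of the surrogate light chain, measured 40178 and 35148 normalized counts with EV and 43214 and 38070 with K198R. Of 10 pro-B cell identity genes, *Cd79a* rose, *Il7r* fell and the rest did not pass the test.

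K198R changed 654 of the 13196 members, or 4.96% (limma, Benjamini-Hochberg adjusted p under 0.05), of which 285 rose (2.16%) and 369 fell (2.80%). Over all 13651 genes tested the share was 4.83%, with 2.09% higher and 2.74% lower. Set beside these shares, 1 or 2 calls in a gene list below say little about the list. The median log2 fold change of the members was 0.01, that of the genes that rose was 1.37 and that of the genes that fell was -1.71. Among the genes that rose, 191 had a log2 fold change of 1 or more and 41 of 3 or more. The corresponding numbers among the genes that fell were 271 and 69. These counts include genes that passed the minimum through 1 group alone and so had to differ. Of the called genes, 28 that rose and 46 that fell were such genes. Before adjustment, 2479 members had an unadjusted p under 0.05. The libraries of the groups did not overlap for 6597 members, 50.0% of them, with K198R above EV in 25.4% and below it in 24.6%. This shows how little non-overlap alone says with 2 libraries a group. All 285 genes that rose and all 369 that fell were among these members, so non-overlap adds nothing to a call.

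How many genes passed rested on each library. Leaving out EV replicate 1 left 63 calls among all genes tested, EV replicate 2 left 113, K198R replicate 1 left 228 and K198R replicate 2 left 63, against 659 with all libraries. No call changed direction. Of the 62 called genes named by the rule given with the methods below, 12 stayed called whichever 1 library was left out. These were *Gnao1*, *Chst1*, *Sel1l3*, *Bhlhe41*, *Entrep2*, *Wnk2*, *Zfpm1*, *Mmp13*, *Rtn4rl2*, *Gpr65*, *Car2* and *Il7r*. Of the 62, 15 stayed called without EV replicate 1, 25 without EV replicate 2, 38 without K198R replicate 1 and 17 without K198R replicate 2. Called genes named beyond that rule are not in these tallies.

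**Figure D1:**
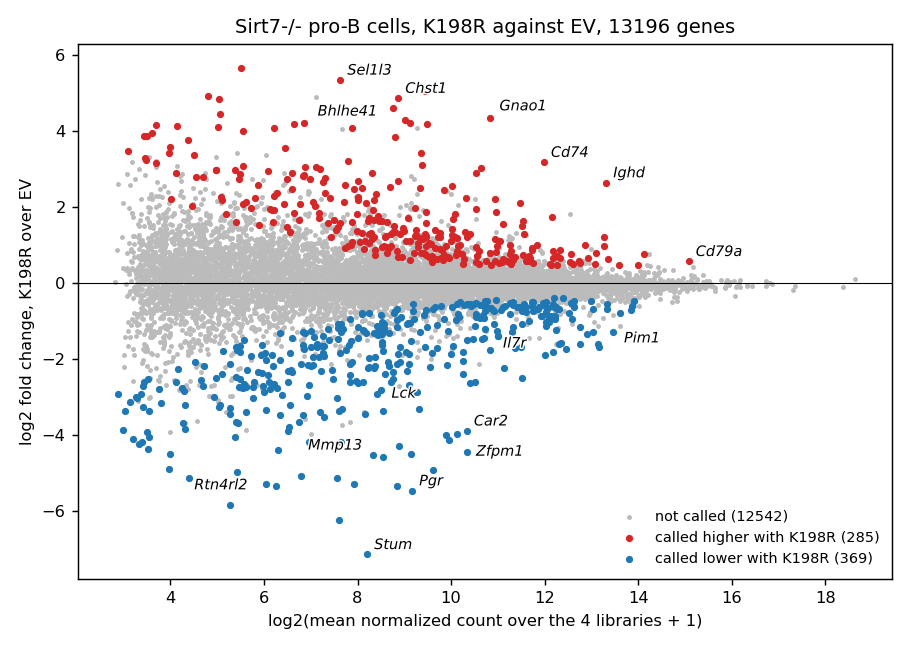
Each point is 1 of the 13196 members, with log2 of the mean normalized count over the 4 libraries plus 1 on the horizontal axis and the log2 fold change of K198R over EV in *Sirt7*-/- cells on the vertical axis. The 285 genes that rose (red) and the 369 that fell (blue) spread to larger changes at low levels, while the most abundant genes stay near 0.

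*Gnao1*, the alpha subunit of a heterotrimeric G protein (chr8:93809966-93969388), measured 169 normalized counts in each EV library and 3636 and 3354 with K198R. The K198R libraries lay far above the EV libraries and close to each other, a ratio of means of 20.7 (log2 fold change 4.36, SE 0.24, limma adjusted p = 0.000263). *Chst1*, a sulfotransferase that modifies keratan sulfate chains (chr2:92599707-92615250), measured 33.1 and 26.6 with EV and 989 and 814 with K198R (log2 fold change 4.87, SE 0.30, adjusted p = 0.000598). *Sel1l3*, a transmembrane protein, measured 8.18 and 8.16 with EV and 290 and 481 with K198R. Its rise was the largest among called genes whose mean reached 50, a minimum that it met through the K198R libraries alone (log2 fold change 5.35, SE 0.39, adjusted p = 0.00126). *Bhlhe41*, a transcriptional repressor of the basic helix-loop-helix family, measured 26.4 and 41.8 with EV and 749 and 923 with K198R (log2 fold change 4.60, SE 0.47, adjusted p = 0.00426).

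Among the other genes with large rises, *Entrep2* and the kinase gene *Wnk2* measured at most 85.4 and 69.1 normalized counts with EV and at least 1280 and 729 with K198R. *Shank1*, a scaffold of synapses, rose by 5.06, *Tiam2*, an activator of the GTPase Rac, by 4.08 and the forkhead gene *Foxf2* by 4.09 on the log2 scale. *Zcchc14* (4.21), *Lgi2* (4.23), the matrix gene *Matn4* (4.18) and *Pcp4l1* (3.56) made up the rest of the 15 besides 2 genes of antigen presentation given below. *Lgi2* ranged from 4.10 to 24.4 normalized counts between the EV libraries, the widest ratio among these genes.

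The steepest falls included a zinc-finger cofactor of GATA factors. *Zfpm1*, which encodes FOG-1 (chr8:122282141-122337251), measured 2537 and 2418 normalized counts with EV and 113 and 111 with K198R. The 2 libraries of each group were nearly alike, and the EV mean was 22.1 times the K198R mean (log2 fold change -4.46, SE 0.15, limma adjusted p = 4.05e-05). *Mmp13*, a matrix-degrading collagenase, measured 549 and 685 with EV and 23.4 and 27.8 with K198R (log2 fold change -4.53, SE 0.21, adjusted p = 0.000217). *Gpr65*, a receptor that senses protons, measured 151 and 147 with EV and 7.79 and 4.80 with K198R. *Rtn4rl2*, a receptor related to the Nogo receptor, measured 135 and 122 with EV and 2.87 and 1.81 with K198R, so that its log2 fold change of -5.30 rests on values near the added 1.

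Several genes that fell steeply differed between the EV libraries themselves. *Stum* measured 798 and 369 normalized counts with EV and 4.68 and 1.56 with K198R (log2 fold change -7.16, SE 0.85, adjusted p = 0.00763), and *Egln3*, an oxygen-sensing prolyl hydroxylase, measured 432 and 329 against 11.6 and 0.960. The size of both falls rests on low K198R values, near the added 1 in the second library. *Pgr*, the progesterone receptor, measured 1483 and 754 against 37.7 and 13.6. In these 3 genes, chosen by a rule that required groups apart, every K198R library lay far below every EV library. The second library was the lower in both groups. Log2 fold changes between -5.36 and -4.51 were measured for *Stxbp6*, *Atp8b4*, *Als2cl*, *Mctp1*, *Pdzd2*, the transporter gene *Slc5a9* and *Auts2*. *Car2*, a carbonic anhydrase abundant in erythroid cells, measured 1745 and 3086 with EV and 212 and 113 with K198R (log2 fold change -3.90, SE 0.37, adjusted p = 0.00269). It is 1 of the 2 erythroid and megakaryocyte genes among the members.

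**Figure D2:**
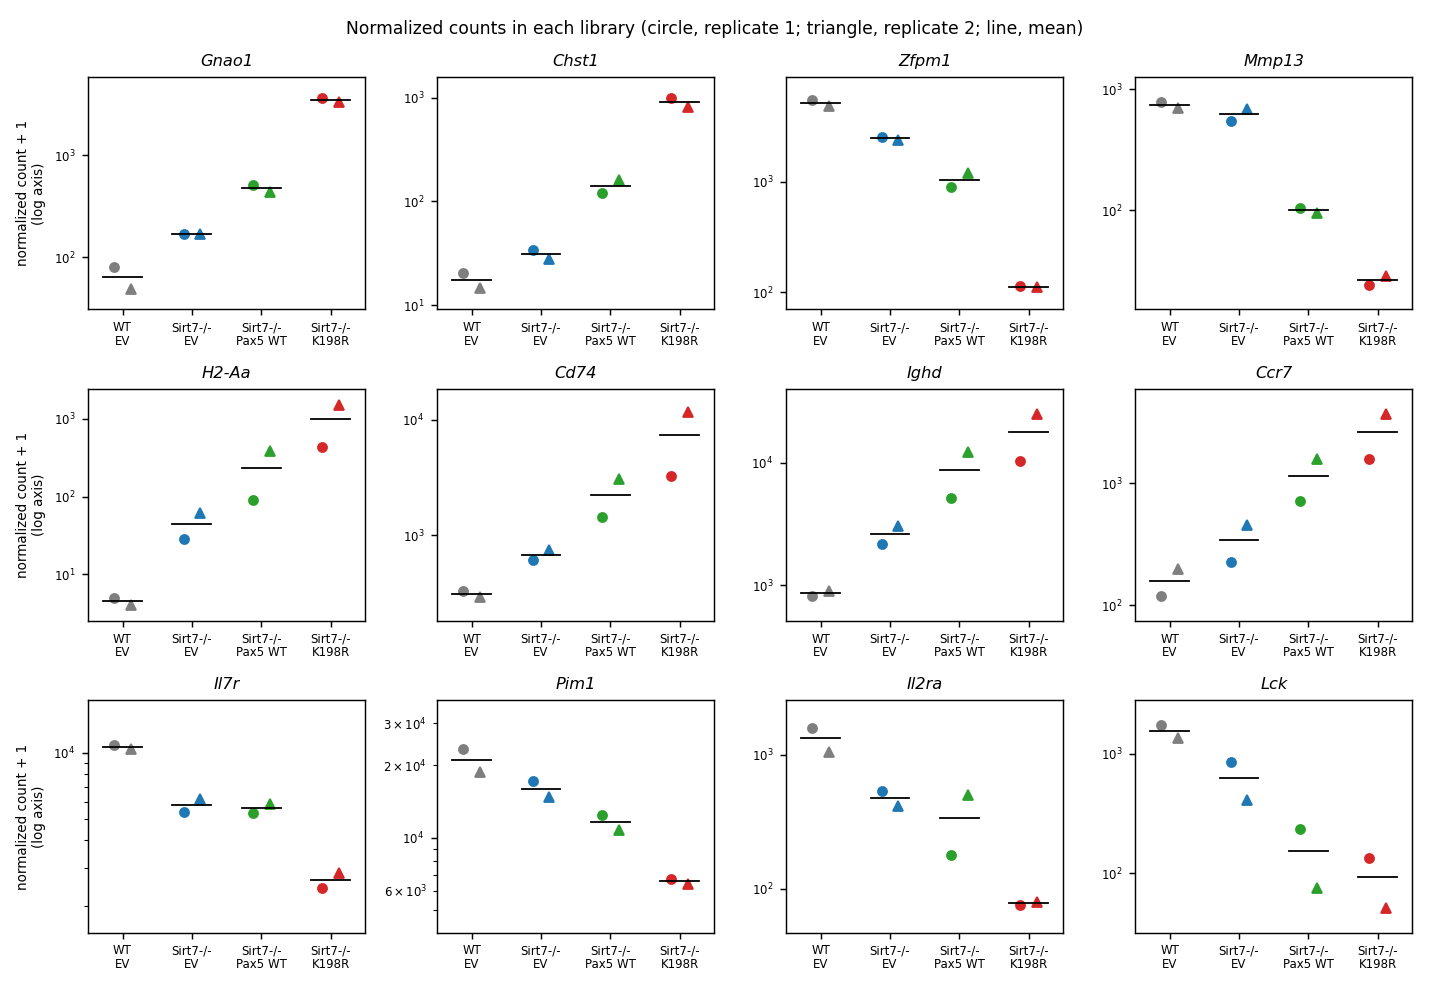
Normalized counts plus 1 of 12 genes in the 8 libraries on log axes, each with its own range (circle, replicate 1; triangle, replicate 2; line, mean; groups from left to right are wild-type cells with EV, then *Sirt7*-/- cells with EV, Pax5 WT and K198R). In *Gnao1*, *Chst1*, *Zfpm1* and *Mmp13* the 2 libraries of a group lie close together, whereas in *H2-Aa*, *Cd74*, *Ighd* and *Ccr7* the second library is higher in the Pax5 WT and K198R groups.

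Genes of antigen presentation and of later B cell stages included some of the largest rises. Of 15 such genes, 4 rose and 0 fell, with a median log2 fold change of 2.25 against 0.01 over all members. This list, like the others, was chosen with earlier results of these data known, so its median is no independent support. *H2-Aa* and *H2-Ab1* encode the 2 chains of the MHC class II molecule I-A. *H2-Aa* measured 27.4 and 60.3 normalized counts with EV and 439 and 1526 with K198R (log2 fold change 4.30, SE 0.79, adjusted p = 0.0249). *H2-Ab1* measured 90.3 and 110 with EV and 673 and 1743 with K198R (log2 fold change 3.43, SE 0.51, adjusted p = 0.0130). *Cd74*, the invariant chain that escorts class II molecules, measured 610 and 745 with EV and 3255 and 11547 with K198R (log2 fold change 3.18, SE 0.55, adjusted p = 0.0209). In all 3 genes, as in every called gene, the groups did not overlap, and the second K198R library was well above the first.

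*Ighd*, the heavy chain constant region of IgD, measured 2174 and 3045 normalized counts with EV and 10318 and 25102 with K198R (log2 fold change 2.64, SE 0.48, adjusted p = 0.0241). *Ciita*, the master activator of class II genes, measured 1.90 and 17.9 with EV and 120 and 409 with K198R, and did not pass the test (adjusted p = 0.061). *H2-Eb1* (8.08 and 29.4 against 115 and 660) and the B cell marker gene *Ms4a1* (57.9 and 178 against 310 and 1699) did not pass it either, although their groups did not overlap. *H2-Ob*, a chain of a class II chaperone, measured 3277 and 2263 against 1991 and 2914 and overlapped between the groups.

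The calls in this list depended on the libraries. Without EV replicate 1, EV replicate 2 or K198R replicate 2, 0 of the 15 genes passed the test, with medians of 2.08, 2.38 and 1.12, while without K198R replicate 1, 5 rose and the median was 3.29. The second K198R library also held more transcripts of the stromal list, genes such as *Fn1*, *Sparc* and the collagens that mark OP9 cells. The sum over the 19 genes of that list in the table was 12926 and 27364 normalized counts with K198R and 12115 and 15410 with EV, and 16921 and 36641 with Pax5 WT. *Fn1*, the most abundant of them, measured 4124 and 6657 with EV and 4689 and 13300 with K198R. *Timp3* was lower with K198R, at 1834 and 936 against 553 and 444. Log2 fold changes were above 0 in 15 members of the list and below 0 in 2. Of the 17 that were members 0 passed the test in either direction with limma (2 had an unadjusted p under 0.05), and their median log2 fold change was 0.52, or 0.07 without K198R replicate 2. The part of stromal RNA in the rise of class II genes was not tested, and in bulk libraries more cells of a type and more RNA per cell cannot be told apart.

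Of 15 genes of the T lineage 3 fell with K198R and 0 rose, with a median log2 fold change of -1.15. Compared with Pax5 WT, 0 of the 15 were called and the median log2 difference was -0.48. *Il2ra*, the alpha chain of the IL-2 receptor, measured 538 and 416 normalized counts with EV and 74.7 and 79.2 with K198R (log2 fold change -2.61, SE 0.44, adjusted p = 0.0196). *Lck*, the Src-family kinase of T cells, measured 847 and 408 with EV and 133 and 50.0 with K198R (log2 fold change -2.83, SE 0.63, adjusted p = 0.0461). *Tcf7*, the T lineage factor TCF-1, measured 41.2 and 31.4 with EV and 5.63 and 10.3 with K198R (log2 fold change -2.09, SE 0.44, adjusted p = 0.0372). As in every called gene, the groups did not overlap in these 3 genes. The calls of this list were lost when any 1 of the 4 libraries was left out, with medians between -1.39 and -0.88. *Il2ra* measured 1587 and 1050 in wild-type cells with EV, *Lck* 1751 and 1348 and *Tcf7* 80.2 and 52.3, all above the *Sirt7*-/- EV libraries. Over the list the median log2 difference of *Sirt7*-/- EV from wild-type EV was 0.0019.

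Of the 15 genes 10 had a log2 fold change below 0 and 5 above 0, and 12 did not pass the test. *Thy1* measured 1960 and 1208 normalized counts with EV and 647 and 329 with K198R, and *Lat*, an adaptor of the T cell receptor, measured 1807 and 729 against 625 and 248. The groups did not overlap in either gene. On the other side, *Dtx1*, a gene of the Notch pathway, measured 48.2 and 31.6 with EV and 181 and 228 with K198R without overlap and did not pass the test (adjusted p = 0.127), and *Hes1*, a target of Notch, measured 1418 and 482 against 2038 and 1034. *Notch1*, the receptor that drives T cell fate and the most abundant gene of the list, measured 1668 and 1162 with EV and 1651 and 1464 with K198R. The summed list was 8982 and 4952 with EV and 5703 and 4209 with K198R, which overlap. The defining T cell gene *Bcl11b* was listed at 0 in all 6 libraries of *Sirt7*-/- cells, against 45.9 and 49.7 in wild-type cells with EV. *Cd3d* was at or below 1.02 in every library.

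*Zbtb16*, the factor PLZF of innate lymphoid cells, measured 192 and 105 normalized counts with EV and 0.897 and 5.51 with K198R (log2 fold change -5.35, SE 0.68, adjusted p = 0.00883). The size of this fall rests on low K198R values, near the added 1 in the first library. *Zbtb16* was the only 1 of the 8 natural killer and innate lymphoid genes to pass the test. The median log2 fold change of the 8 was -0.61, with 6 below 0 and 2 above. Those above 0 were *Nkg7* (129 and 25.4 with EV, 373 and 75.8 with K198R) and *Nfil3* (64.8 and 48.2 against 103 and 76.0). Of 9 myeloid genes, *Lyz2*, which encodes lysozyme, fell (148 and 61.9 against 18.4 and 17.2) and 0 rose. The median of this list was 0.27, with 6 of the 9 above 0, and 0.90 without EV replicate 1. *Cebpa*, a myeloid transcription factor, measured 37.7 and 127 with EV and 170 and 355 with K198R and did not pass the test (adjusted p = 0.151). Neither call held without EV replicate 1, and that of *Lyz2* held only without EV replicate 2.

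The receptor for IL-7, the cytokine in which the cells were grown, fell. *Il7r* (chr15:9505788-9530176) measured 5361 and 6155 normalized counts with EV and 2431 and 2834 with K198R (log2 fold change -1.13, SE 0.12, limma adjusted p = 0.00456). Both K198R libraries lay well below both EV libraries, with a ratio of means of 0.457. *Pim1*, a kinase gene induced by STAT5, measured 17230 and 14821 with EV and 6719 and 6442 with K198R (log2 fold change -1.28, SE 0.14, adjusted p = 0.00530). Of the 24 genes of the receptor and STAT5 list 3 fell, *Il7r*, *Pim1* and *Il2ra*, and *Bcl2l1*, which encodes the survival protein BCL-XL, rose by 0.53 (SE 0.10, adjusted p = 0.0240), a call lost without any 1 of the 4 libraries (adjusted p up to 0.171). The median of the list was -0.09. *Stat5a* (1619 and 1434 against 1491 and 1368) and *Cish* (9026 and 3506 against 8236 and 4802), a feedback inhibitor of STAT5, did not pass the test. Of 12 BCL2 family genes 1 rose, *Bcl2l1*, and 0 fell.

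Among the genes of the pre-B cell receptor and B cell receptor, 1 of 24 rose and 1 fell, with a median of 0.04. *Cd79a*, a signalling chain of both receptors, measured 27964 and 27604 normalized counts with EV and 39232 and 43351 with K198R (log2 fold change 0.57, SE 0.10, adjusted p = 0.0220). *Vpreb3*, which binds the receptor's light chains, measured 11064 and 11028 with EV and 3822 and 4876 with K198R (log2 fold change -1.36, SE 0.15, adjusted p = 0.00569). The libraries of each group were close and the groups well apart in both genes. *Cd22*, an inhibitory receptor, measured 1739 and 3649 with EV and 6611 and 11907 with K198R without passing the test (adjusted p = 0.12). *Ighm*, the IgM heavy chain, measured 79755 and 88424 against 77478 and 81526. The surrogate light chain genes *Vpreb1a* and *Vpreb1b* are near-identical copies whose reads can be split between them, and neither passed the test. The call of *Cd79a* was lost without any 1 of the 4 libraries (adjusted p up to 0.166) and that of *Vpreb3* in 1 of the 4 cases (adjusted p up to 0.0501).

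Of 26 genes known as activated by Pax5, 3 rose and 2 fell, and of 20 known as repressed by it, 2 rose and 4 fell. The medians were -0.01 and -0.00077. Besides *Cd79a*, the activated genes that rose were *Bcar3*, an adaptor of integrin signalling (1769 and 1308 against 4042 and 4544), and *Sdc4*, the proteoglycan syndecan-4 (6413 and 5454 against 13292 and 14312). Those that fell were *Vpreb3* and *Cplx2*, a regulator of vesicle fusion, which measured 16583 and 19263 with EV and 11442 and 12119 with K198R. The calls of *Sdc4* and *Cplx2* were lost without any 1 of the 4 libraries.

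Among the repressed genes, *Grap2*, an adaptor of T cell signalling, measured 851 and 618 normalized counts with EV and 192 and 201 with K198R (log2 fold change -1.88, SE 0.23, adjusted p = 0.00825). *Prdm1*, the plasma cell factor BLIMP-1, measured 21.7 and 23.2 against 3.26 and 1.71, and *Jchain*, the joining chain of secreted antibody, 60.6 and 69.4 against 15.8 and 21.4. These 2 were the calls among 18 genes of the endoplasmic reticulum and plasma cells, of which 0 rose. Both calls were lost without any 1 of the 4 libraries, and the K198R values of *Prdm1* lie near the added 1. *Tcf7* fell as given above. *Lmo2*, a progenitor gene, rose from 691 and 693 to 1299 and 2344, and *Emb* rose from 316 and 348 to 766 and 985. Without EV replicate 1 or K198R replicate 2, 0 of these 20 repressed genes passed the test. Of the activated genes, 1 passed it in each case.

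Of 28 B lineage transcription factors 0 passed the test in either direction with limma, with a median of 0.01, and 8 had an unadjusted p under 0.05. With the replicate number as a block, 2 of the 28 were called higher and 3 lower. *Ebf1*, which acts with Pax5 in B cell commitment, measured 9159 and 10746 normalized counts with EV and 7322 and 8370 with K198R. *Irf4*, which promotes pre-B cell differentiation, measured 6627 and 7851 against 4917 and 4714, and *Foxo1*, an activator of the recombinase genes, 4213 and 4256 against 3134 and 2905. The groups did not overlap in these 3 genes, and their adjusted p were 0.19, 0.0560 and 0.0619. Of 12 genes of V(D)J recombination 0 passed the test and 3 had an unadjusted p under 0.05, while 4 were called lower with the block. *Rag1*, a subunit of the recombinase, measured 2068 and 5055 with EV and 1037 and 1903 with K198R.

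**Figure D3:**
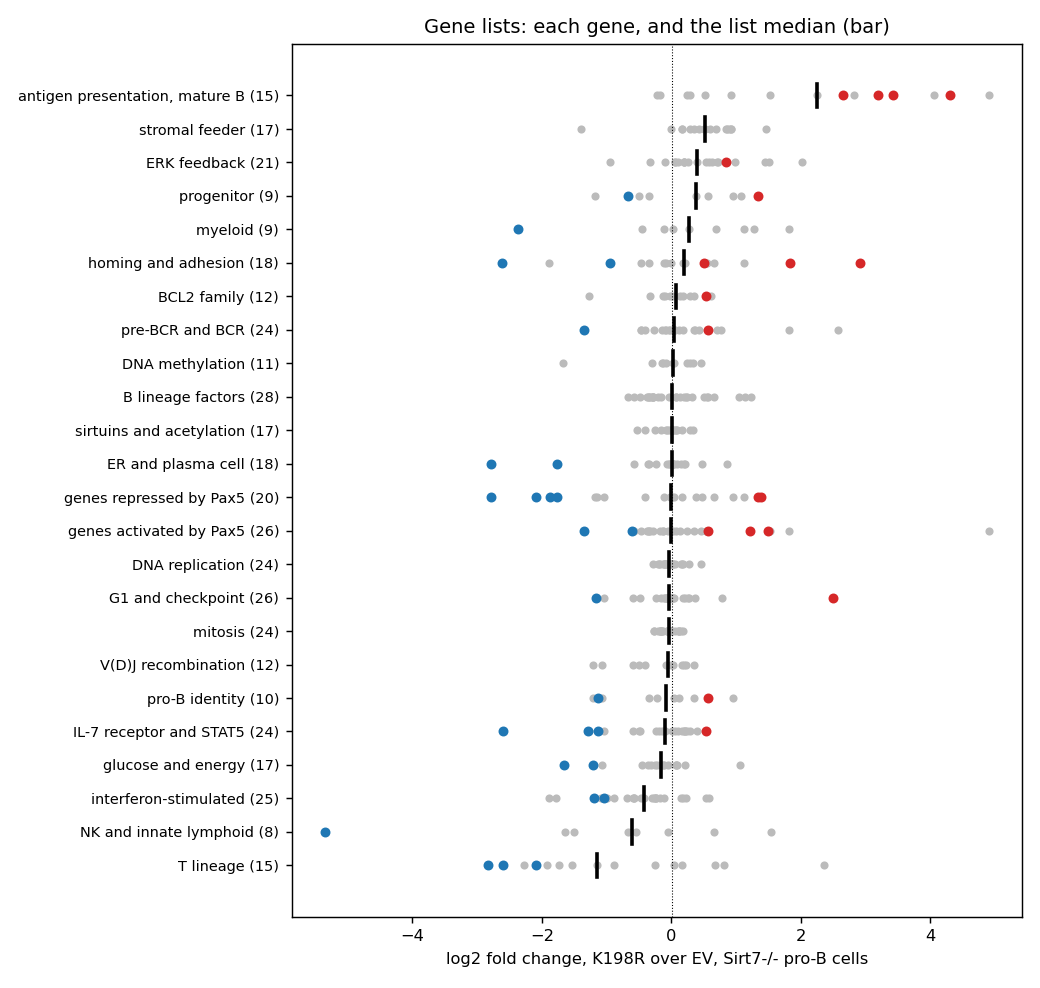
Log2 fold change of K198R over EV in *Sirt7*-/- cells for each gene of 24 lists, with the number of members in parentheses (red, rose; blue, fell; grey, did not pass the test; bar, list median). The median is farthest above 0 for antigen presentation and mature B cell genes (2.25) and farthest below 0 for T lineage genes (-1.15). It lies near 0 for replication, mitosis and B lineage factors. The lists were chosen with earlier results of these data known.

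Genes of homing and adhesion moved in both directions, with 3 of 18 higher and 2 lower. *Ccr7*, the receptor that guides lymphocytes into lymph nodes, measured 225 and 450 normalized counts with EV and 1558 and 3705 with K198R (log2 fold change 2.91, SE 0.54, adjusted p = 0.0262). *Itga4*, an integrin chain that binds stromal VCAM-1, measured 5663 and 6875 against 2895 and 3624 (log2 fold change -0.95, SE 0.14, adjusted p = 0.0125). The adhesion kinase gene *Ptk2* (354 and 628 against 1565 and 1800) and the integrin gene *Itgb1* (5361 and 4978 against 7835 and 6795) rose. The groups stood apart in these 4 genes, as in every called gene. Without EV replicate 1 or EV replicate 2, 0 of the 18 passed the test.

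Of 24 DNA replication genes and 24 genes of mitosis 0 were called with limma, with medians of -0.03 and -0.04, and 1 and 2 had an unadjusted p under 0.05. *Mcm6*, a subunit of the replicative helicase, measured 12591 and 15533 normalized counts with EV and 12101 and 10833 with K198R. Of 26 genes of the G1 phase and its checkpoints 1 rose and 1 fell. *Cdk6*, the G1 kinase, measured 10114 and 8827 with EV and 5205 and 3443 with K198R (log2 fold change -1.16, SE 0.18, adjusted p = 0.0146). *Ccnd1*, which encodes cyclin D1, measured 46.0 and 111 with EV and 399 and 417 with K198R (log2 fold change 2.49, SE 0.56, adjusted p = 0.0465). Cyclin D3, from the more abundant *Ccnd3*, measured 16380 and 16845 against 19401 and 18844 and did not pass the test. Without EV replicate 1, EV replicate 2 or K198R replicate 2 neither *Cdk6* nor *Ccnd1* passed it.

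The interferon and glucose lists held 2 calls each, too few to give a direction, and of all members 2.80% fell and 2.16% rose. Of 25 interferon-stimulated genes 2 fell and 0 rose, with a median of -0.43. *Gbp7*, a guanylate-binding protein, measured 5657 and 5997 normalized counts with EV and 2636 and 3066 with K198R (log2 fold change -1.03, SE 0.12, adjusted p = 0.00763), and the related *Gbp5* measured 521 and 528 against 235 and 222. Guanylate-binding proteins are a family of similar genes in 1 cluster, so reads shared between them could be split. *Ifi44*, an interferon-induced gene, measured 355 and 469 with EV and 107 and 111 with K198R and did not pass the test (adjusted p = 0.243). The wild-type libraries, which share the fit's estimate of spread, lay far apart in this list, with sums of 23636 and 40397 normalized counts and 329 and 2529 for *Ifi44*. With either of them left out, an alternative added after the data were seen, 4 of the 25 fell, *Ifi44* and *Ifi47* besides *Gbp7* and *Gbp5*. Of 17 genes of glucose and energy use 2 fell. *Pfkp*, a phosphofructokinase of glycolysis, measured 2504 and 2181 against 1204 and 839, and the transporter gene *Slc2a6* 79.4 and 56.4 against 21.1 and 19.9. Without EV replicate 1 or EV replicate 2, 0 genes of either list passed the test.

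Of 21 genes of ERK signalling and its feedback, 1 rose (*Spred2*, an inhibitor of the pathway, 1167 and 1010 against 2353 and 1623), with a median of 0.39. This call was lost without any 1 of the 4 libraries (adjusted p up to 0.188). Of 9 progenitor genes *Lmo2* rose and *Cd93*, a marker of immature B cells, fell (12865 and 12447 against 7305 and 8577). The call of *Cd93* was lost without any 1 of the 4 libraries. Of 17 genes for sirtuins and lysine acetylation 0 passed the test (3 before adjustment), and log2 fold changes lay between -0.52 and 0.34. Of 11 genes of DNA methylation 0 passed it (4 before adjustment).

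The study named 4 genes for these cells, a choice made on these libraries. It gave *Cxcr5* and *Tet1* as genes whose repression Pax5 K198R and, less strongly, Pax5 WT restored. *Nfatc2* and *Cyyr1* were its examples of genes repressed by Pax5 WT. *Cxcr5*, a chemokine receptor gene, measured 1045 and 477 normalized counts with EV and 333 and 107 with K198R (log2 fold change -1.89, SE 0.77, adjusted p = 0.238). *Tet1*, a methylcytosine dioxygenase gene, measured 354 and 286 against 125 and 78.4 (adjusted p = 0.160). *Nfatc2*, a calcium-responsive factor of T cells, measured 88.9 and 54.2 against 15.7 and 11.6 (adjusted p = 0.0712), and *Cyyr1* measured 219 and 198.1 against 45.1 and 5.69 (adjusted p = 0.0562). In each of the 4 genes both K198R libraries lay below both EV libraries, as in 24.6% of all members. With limma 0 of the 4 passed the test, while all 4 had an unadjusted p under 0.05, as had 2479 of the 13196 members. Because the study chose the 4 genes on these libraries, neither count adds support for its statement. With the replicate number as a block all 4 were called lower, though the labels do not say what a number shares.

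The second question was where K198R differed from Pax5 WT in the same cells. The direct comparison called 58 of 13651 genes, or 0.425%, of which 17 were higher with K198R (0.125%) and 41 lower (0.300%), while 1199 genes reached an unadjusted p under 0.05. The comparison of 4 libraries alone left 5 calls, and leaving out a library left between 2 (without K198R replicate 2) and 13 (without either Pax5 WT library), with 3 without K198R replicate 1. *Gnao1* measured 513 and 434 normalized counts with Pax5 WT, between the EV and K198R levels, with a log2 difference of 2.88 (SE 0.24, limma adjusted p = 0.00763) between K198R and Pax5 WT. *Chst1* was 2.69 and *Sel1l3* 2.67 higher.

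*Zfpm1* measured 899 and 1195 with Pax5 WT with a log2 difference of -3.20 (SE 0.15, adjusted p = 0.000527). *Il7r* measured 5301 and 5873 with Pax5 WT, overlapping the EV libraries, with a log2 difference of -1.09 (SE 0.12, adjusted p = 0.0195). *Vpreb3* measured 8267 and 10419 with a log2 difference of -1.10 (SE 0.15, adjusted p = 0.0346). *Ranbp17*, a nuclear transport receptor of the importin-beta family, measured 250 and 154 with Pax5 WT and 24.9 and 12.2 with K198R, against 248 and 167 with EV. K198R stood apart from both other groups of *Sirt7*-/- cells in *Ranbp17* and *Il7r*. *Car2*, *Rtn4rl2*, *Gpr65* and *Mmp13* were also lower with K198R than with Pax5 WT, with log2 differences of -2.98, -2.63, -2.50 and -1.92.

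Of the 4 antigen presentation genes that rose over EV, 0 passed the test against Pax5 WT. The log2 differences were 2.14 for *H2-Aa*, 2.28 for *H2-Ab1*, 1.54 for *Cd74* and 1.03 for *Ighd*, with adjusted p between 0.145 and 0.625. Among the 5 genes with the largest excess over Pax5 WT, *Gm6361* and *Xlr3a* were listed at 0 in both Pax5 WT libraries, and *Gm6361* held 155 and 190 with EV and 116 and 169 with K198R. *Xlr4b* and *Cd300ld3* were 3.70 and 4.61 higher with K198R. These 4 are predicted genes or members of families of similar copies, and their values are uncertain.

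**Figure D4:**
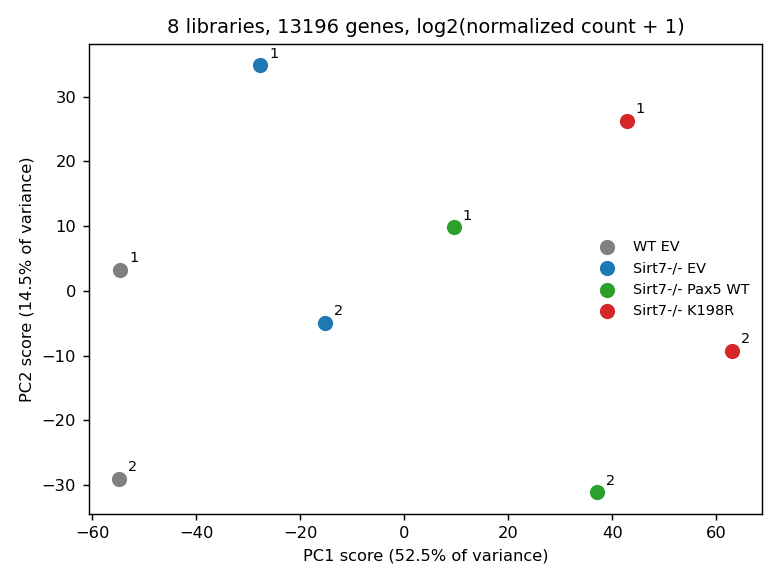
First and second principal components of the member genes, with 52.5% and 14.5% of the variance, for the 8 libraries. From left to right along the first component lie wild-type cells with EV, then *Sirt7*-/- cells with EV, Pax5 WT and K198R, and the 2 libraries of each *Sirt7*-/- group stand apart from each other.

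Over all members the libraries with K198R lay farthest from those of wild-type cells. On the first principal component the wild-type libraries were at -54.7 and -54.8, *Sirt7*-/- EV at -27.7 and -15.2, Pax5 WT at 9.55 and 37.1 and K198R at 42.8 and 63.0. The distance between group means on the log2 scale was 84.2 between K198R and EV, 57.9 between K198R and Pax5 WT and 110.5 between K198R and wild-type EV. Between *Sirt7*-/- EV and wild-type EV it was 60.2. Single libraries of 1 group were between 61.2 and 67.1 apart, which is not the same quantity as a distance between means of 2 libraries, and no test was made.

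Against wild-type cells with EV, K198R in *Sirt7*-/- cells called 1897 of 13651 genes, or 13.9%, with 1003 higher (7.35%) and 894 lower (6.55%). This comparison differs in genotype and in vector, which cannot be told apart in it. *Gnao1* measured 79.3 and 48.5 normalized counts in wild-type cells, below the *Sirt7*-/- EV libraries, and *Zfpm1* measured 5556 and 4836, above them. *Il7r* measured 10843 and 10445 in wild-type cells, and *Cd74* measured 330 and 291. In these 4 genes, given as examples, the K198R libraries were farther from the wild-type libraries than the *Sirt7*-/- EV libraries were. In other genes they were nearer, as in 3 of the 4 genes the study named, judged on the log2 scale. *Cxcr5* measured 406 and 193 in wild-type cells, *Tet1* 179 and 66.7 and *Nfatc2* 18.6 and 15.9. Their log2 differences from wild-type cells were 1.33, 1.53 and 1.95 for *Sirt7*-/- EV and -0.56, -0.15 and -0.33 for K198R. The fourth, *Cyyr1*, measured 66.0 and 78.4 in wild-type cells, with a log2 difference from them of 1.52 for *Sirt7*-/- EV and -2.05 for K198R. *Sirt7* itself was lower than in wild-type cells (log2 difference -1.69, SE 0.22, adjusted p = 0.00243). Leaving out K198R replicate 1, K198R replicate 2 or the second wild-type library gave 1068, 797 and 1117 calls.

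The series also holds ChIP–seq peaks of Pax5 K198R in *Pax5*-/- pro-B cells, a readout that the choice of genes did not use and that comes from other cells. The K198R replicates gave 12158 and 13997 peaks, and 9350 of those in replicate 1 (76.9%) overlapped one in replicate 2. A K198R peak found in both replicates lay within 2000 bases of the annotated start for 87 of the 285 genes that rose, 30.5% (95% Wilson interval 25.5 to 36.1). It did so for 91 of 368 genes that fell, 24.7% (20.6 to 29.4), and for 4493 of all 13140 members with an annotated start, 34.2%. The intervals cover counting error only. By this definition neither group of changed genes had a larger share with a peak than all members. Within 10000 bases the share was 42.1% for genes that rose and 41.6% for all members.

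The share with a peak rose with expression, and the changed genes were less abundant than the members as a whole. Their median levels were 508 normalized counts for genes that rose and 370 for genes that fell. Among genes at or above 797 normalized counts, the median of the members with a start, a peak was found for 46.3% of genes that rose, 44.0% of genes that fell and 46.8% of all. Below it the shares were 20.9%, 13.7% and 21.6%, with an interval of 9.86 to 18.7 for the genes that fell. The split by level was added after the data were seen. The share for genes that fell lay below that of all members at low levels.

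Among the called genes named above, *Sdc4*, *Cd79a*, *Cd93*, *Zfpm1*, *Itga4*, *Pim1*, *Lck*, *Tcf7*, *Ccnd1*, *Car2*, *Bcar3*, *Gnao1*, *Entrep2*, *Wnk2*, *Stum*, *Egln3*, *Cplx2*, *Bcl2l1*, *Spred2* and *Itgb1* had such a peak. At *Sdc4* the K198R peak had a fold enrichment over input of 18.9 and at *Cd79a* of 12.6, while at *Gnao1* it was 4.51. *Pim1*, *Entrep2*, *Wnk2*, *Cplx2* and *Itgb1* had no peak of wild-type Pax5 in both replicates at this distance. *Il7r*, *Chst1*, *Sel1l3*, *Mmp13* and *Vpreb3* had no K198R peak in both replicates within 2000 bases.

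The windows below are the 101 bases around the summits of K198R peaks (peak of replicate 1) near 5 genes, shown to give the sequence under the peak near a gene that fell steeply, with libraries of each group nearly alike (*Zfpm1*), near a fall in the IL-7 list (*Pim1*) and in adhesion (*Itga4*), and near 2 called genes whose window holds letters close to the core of known Pax5 motifs (*Dclk2*, which rose, and *Sox6*, which fell; both chosen after their values were seen). All are on the plus strand of mm10 and overlap no annotated untranslated region. Capitals mark the letters GCNTGAC or their reverse complement.
Zfpm1 chr8:122281378-122281478: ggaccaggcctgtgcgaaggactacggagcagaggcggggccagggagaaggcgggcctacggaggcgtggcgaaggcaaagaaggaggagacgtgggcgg
Pim1 chr17:29490487-29490587: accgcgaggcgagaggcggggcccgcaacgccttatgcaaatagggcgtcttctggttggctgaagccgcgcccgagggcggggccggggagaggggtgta
Itga4 chr2:79254710-79254810: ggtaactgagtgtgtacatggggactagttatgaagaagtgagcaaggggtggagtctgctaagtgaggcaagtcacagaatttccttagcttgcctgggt
Dclk2 chr3:86920879-86920979: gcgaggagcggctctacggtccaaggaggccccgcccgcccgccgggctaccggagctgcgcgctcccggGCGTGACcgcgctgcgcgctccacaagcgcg
Sox6 chr7:116040216-116040316: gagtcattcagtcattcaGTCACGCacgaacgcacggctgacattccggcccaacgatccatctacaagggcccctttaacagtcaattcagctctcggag

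The letters GCNTGAC, searched on both strands, occurred in 955 of 9347 such windows around K198R summits (10.2%), in 2.82% of windows of the same length placed 1000 bases to the right and in 4.24% of windows around the starts of the members. They occurred in 11 of 87 windows near genes that rose (12.6%) and in 8 of 91 near genes that fell (8.79%). The summit of the *Zfpm1* window lay 713 bases before the gene's start and that of *Pim1* 216 bases before it. Neither of these windows holds the letters, which says nothing about binding of Pax5 there, and a match is a description of the sequence.

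K198R was also expressed in *Pax5*-/- cells. The labels give these as bone marrow pro-B cells, whereas the study's methods take *Pax5*-/- progenitors from fetal liver of C57BL/6 mice, and *Sirt7*-/- mice were on the 129Sv background. That table was normalized separately, so the values stand side by side without a test between tables. *Pax5* itself measured 2201.2 and 2103 normalized counts there with EV and 21162 and 16609.5 with K198R, so some *Pax5* signal remained in the cells labelled *Pax5*-/- that carry EV. There, K198R called 1324 of 13345 genes, or 9.92%, with 517 higher (3.87%) and 807 lower (6.05%). Of the 285 genes that rose in *Sirt7*-/- cells 238 were tested in *Pax5*-/- cells, where 24 rose (10.1%) and 22 fell (9.24%). Of the 369 that fell 321 were tested, and 57 rose (17.8%) and 56 fell (17.4%). Among all 12313 members tested there, 4.01% rose and 5.10% fell. The genes that moved in *Sirt7*-/- cells were thus called about as often in the opposite direction as in the same one.

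Of the 62 called genes named by rule 51 were tested in *Pax5*-/- cells, where 14 were called in the same direction and 12 in the opposite one. *Cd79a* rose in both, from 2282 and 2247 normalized counts with EV to 13596 and 14080 with K198R in *Pax5*-/- cells. *Vpreb3*, which fell in *Sirt7*-/- cells, rose there from 733 and 813 to 7165 and 6959. *H2-Aa*, which rose in *Sirt7*-/- cells, fell there from 34.9 and 47.3 to 5.06 and 2.03. *Zfpm1* rose from 3009 and 3070 to 4815 and 5740 in *Pax5*-/- cells.

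**Figure D5:**
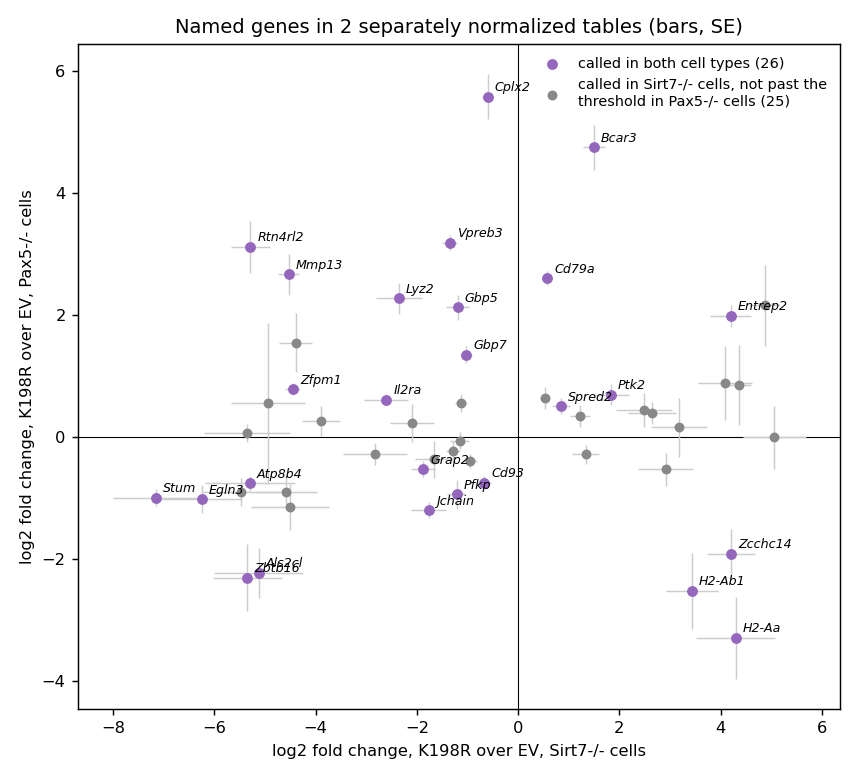
Log2 fold change of K198R over EV in *Sirt7*-/- cells (horizontal axis) and in *Pax5*-/- cells (vertical axis) for the 51 called genes named by rule and tested in both, with bars of 1 SE. The 26 genes called in both (purple) fall in all 4 quadrants, with 14 in the same direction and 12 in opposite directions.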

How the data were processed

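The RNA-seq signal per gene was made by the authors with Salmon on mm10, corrected for GC bias, then Tximeta and the size factors of DESeq2, and was deposited as normalized counts. These are not whole reads, so no count model was run, and the reads per library are unknown. ChIP–seq peaks were called by the authors per replicate over input with MACS2 after Bowtie2 and removal of duplicates, and the deposited lists give the fold enrichment, a ratio, and −log10 of the q-value. Versions of these tools are not given in the sources used here. The peak names inside the list of K198R replicate 2 carry another replicate number.

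Normalized counts plus 1 were log2-transformed. limma 3.58.1 (R 4.3.3) was run with 4 groups of 2 libraries in 1 fit, a variance trend and 4 residual degrees of freedom. Tests covered the 13651 genes reaching 10 normalized counts in 2 or more of 8 libraries, with Benjamini-Hochberg adjustment, and genes were called under 0.05. *Pax5*-/- libraries were fitted alone in the same way. The fit, the peak distances and the motif search were tested on simulated data. Of 1745 genes listed without a symbol, 1636 took one from the reference names. Positions are those of GENCODE M21, and promoter and genome sequence came from RefSeq (GRCm38.p6). Peaks were matched to gene starts within 2000 bases with 1 base of overlap between replicates.

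The members, lists and tests were chosen with earlier results of these data known. The genes named are *Pax5* and *Sirt7*, the genes the study names for these cells, up to 15 called genes with the largest change in each direction (mean of at least 50, groups apart), up to 4 called genes of each list and up to 5 in each direction against Pax5 WT. List members named beyond this rule (*Emb*, *Itgb1* and those that did not pass the test), *Dclk2* and *Sox6* were chosen after their values were seen. A called gene of the homing list is not reported here.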

Additional observations from a re-analysis of the deposited data

Results flagged for a closer look

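In 12 named genes every library with K198R lay on one side of the EV libraries in *Sirt7*-/- cells and on the other side in *Pax5*-/- cells, with a call in each (limma, Benjamini-Hochberg adjusted p under 0.05). The difference between the cell types was not tested, because the tables were normalized separately. The endogenous *Pax5* gene is intact in 1 set of cells and labelled as deleted in the other, where EV libraries held 2201.2 and 2103 normalized counts of *Pax5*, and the mouse strain, the tissue of origin that the methods give (fetal liver for *Pax5*-/- cells, bone marrow for *Sirt7*-/- cells) and the sorted populations differed as well, so these cannot be told apart.

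The class II genes *H2-Aa* and *H2-Ab1* and the zinc-finger gene *Zcchc14* rose in *Sirt7*-/- cells, by 4.30, 3.43 and 4.21 on the log2 scale. In *Pax5*-/- cells their log2 fold changes were -3.28, -2.51 and -1.90. The class II genes were near the lower limit of the table there, with at most 47.3 normalized counts for *H2-Aa* and 30.2 for *H2-Ab1*.

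The other 9 genes fell in *Sirt7*-/- cells and rose in *Pax5*-/- cells. *Vpreb3* and *Cplx2*, both known as activated by Pax5, had log2 fold changes of -1.36 and -0.60 in *Sirt7*-/- cells and of 3.19 and 5.58 in *Pax5*-/- cells. *Il2ra* measured -2.61 against 0.62 and the lysozyme gene *Lyz2* -2.36 against 2.28. The guanylate-binding protein genes *Gbp7* and *Gbp5* measured -1.03 and -1.20 against 1.35 and 2.13. *Zfpm1* (FOG-1) measured -4.46 against 0.79, *Mmp13* -4.53 against 2.67 and *Rtn4rl2* -5.30 against 3.13.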

How the results depend on the processing

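With 2 libraries a group, the counts of called genes depended on the test more than on scaling. K198R against EV gave 659 calls, 423 with no filter on low values, 370 without the variance trend and between 63 and 228 without 1 library. The share of calls that were higher was 43.2%, and 29.8% or 22.2% without K198R replicate 1 or 2. K198R against Pax5 WT gave 58 calls, 16 with no filter, 27 without the trend, 5 in a fit of the 4 libraries alone and between 2 and 13 without 1 library. K198R against wild-type EV gave 1897, 1180 when a log2 change of 1 or more in either direction was also required and between 797 and 1355 without 1 library (alternatives chosen after seeing the data). Pseudocounts of 0.5 or 8, quantile normalization, scaling to the mean total and a minimum of 50 normalized counts kept each count within 1.5 times. No call of K198R against EV changed direction under any alternative run. Of single-gene values recomputed, 970 kept their direction and side of the threshold, 208 lost the call, 21 gained one and 2 uncalled ones changed sign, *Sirt7* (from -0.19 to 0.014 without 1 library, above 0 without EV replicate 2) and the Y-linked *Ddx3y* (from -0.62 to 1.93, below 0 without K198R replicate 2). The cause of these changes was not tested. Of 378 list medians recomputed 30 took the other sign.

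The replicate number as a block gave 1588 calls for K198R against EV (752 higher, 836 lower), 314 against Pax5 WT and 2999 against wild-type EV, and kept all 659. It also called all 4 genes that the study named (*Cxcr5*, *Tet1*, *Nfatc2* and *Cyyr1*) as lower, of which 0 passed without it. Among the lists it called 7 T lineage genes lower and 1 higher (3 and 0 without it), 9 antigen presentation genes higher (4), 4 genes of V(D)J recombination lower (0) and 2 B lineage factors higher and 3 lower (0 and 0). Of the pre-B and B cell receptor genes it called 4 higher and 4 lower (1 and 1 without it). Of the ERK genes it called 5 higher and 1 lower (1 and 0). The deviations of same-numbered libraries from their group means correlated at between 0.156 and 0.428 over the 6 pairs of groups, a hint from the data, while the labels do not say what a number shares.

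The share of genes with a K198R peak moved with its definition. For genes that rose it was 30.5%, and 42.1% within 10000 bases, 46.7% with a peak in at least 1 replicate and 15.4% with −log10 q of at least 10. For genes that fell it was 24.7%, 28.5%, 36.7% and 12.5%, and for all members 34.2%, 41.6%, 51.0% and 15.4%. The depth of the RNA-seq libraries was not known, so no limit of detection was set for genes listed at 0.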

Other observations

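Several genes outside the lists were called both against EV and against Pax5 WT, and were picked here after their values were seen. *Mtor*, the growth-control kinase, measured 6550 and 6693 normalized counts with EV, 6057 and 4493 with Pax5 WT and 12903 and 13307 with K198R. The K198R libraries stood above all others, with log2 differences of 0.98 from EV and 1.33 from Pax5 WT (limma adjusted p = 0.0113 and 0.0174). *Dock8*, an activator of the GTPase Cdc42, measured 2002 and 2111 with EV, 1024 and 896 with Pax5 WT and 409 and 371 with K198R. *Ly9*, a receptor of the SLAM family, measured 1459 and 1677 with EV, 1104 and 1501 with Pax5 WT and 363 and 333 with K198R. *Il33*, an alarmin cytokine, measured 524 and 522 with EV, 242 and 154 with Pax5 WT and 56.9 and 39.0 with K198R. In *Dock8* and *Il33* the Pax5 WT libraries lay between the other groups, and in *Ly9* they overlapped EV.

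The median span was 29.8 kb for genes that rose, 36.6 kb for genes that fell and 22.4 kb for all members, and the median exon length was 4.71, 5.13 and 4.40 kb. Of the genes that rose 3.16% lay on the X chromosome, of those that fell 3.53% and of all members 3.11%.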
